A study of Mus musculus with 41 samples.

Results

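The 10 genes described here encode the transcription factor NF-kB, its inhibitors and a few of its targets: Nfkbia, Nfkbie, Nfkbiz, Nfkb1, Nfkb2, Rela, Relb, Tnfaip3, Lcn2 and Acod1. They were chosen by symbol, and all 10 have 1 row each among the 22438 genes of the footprint tables and are present among the 55385 genes of the RNA tables. The choice was made with results of these libraries already known and does not record which values guided it. Most members lie furthest from controls in the footprints of Pelo-/- cells, so those footprints, and the quantities computed from them, are given as a description without p-values, and nothing is supported with them.

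The study asked what the loss of ribosome rescue does to gene expression. PELO and HBS1L form a complex that frees ribosomes stalled on mRNA, and UPF2 is a factor of nonsense-mediated decay, the pathway that degrades mRNAs with premature stop codons. There were 41 libraries, of which 30 held ribosome footprints, the stretches of mRNA protected by ribosomes, and 11 held RNA. E8.5 embryos on C57BL/6NJ were pooled into 3 Hbs1l-/- and 3 Wildtype libraries. P14 cerebella on C57BL/6J were Atoh-Cre;Hbs1l cKO or Atoh-Cre;Hbs1l +/+, with 3 libraries each and 1 cerebellum per library. This Cre acts in granule cells, so that in other cerebellar cells the floxed allele was kept. Mouse embryonic fibroblasts (MEFs), a primary culture from individual C57BL/6 embryos, carried CAG-Cre ER, a Cre that tamoxifen switches on, and mutants and controls alike received tamoxifen. They were Hbs1l, Pelo or Upf2 cKO cells, here called Hbs1l-/-, Pelo-/- and Upf2-/-, or controls with the Cre alone, with 3 footprint libraries for each mutant and 3 controls for each of the 3 batches. For RNA there were 3 libraries per group but 2 of Pelo-/-, and the mutants shared 1 set of controls. By the study's methods the Hbs1l cKO had 1 floxed and 1 deleted Hbs1l allele, so that cells without Cre activity had 1 intact copy, unlike the controls, and the Pelo and Upf2 cKO had both alleles floxed. All MEF groups, controls included, and the Atoh-Cre;Hbs1l cKO cerebella were by the same methods homozygous for the mutation of n-Tr20 that C57BL/6J mice carry, in a gene of a brain arginine tRNA.

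The total count was 2634480 to 7298812 per embryo library, 10919139 to 22591768 per cerebellum library, 5782990 to 25607974 per MEF footprint library and 22713643 to 86425762 estimated counts per RNA library. Controls with the same number in the 3 MEF footprint batches were nearly alike: their chi-square was 1.10 to 1.19 per gene, close to what counting alone gives, and 4.06 to 12.6 for other pairs of controls, so the 3 MEF footprint comparisons in effect share the same 3 controls. Footprints of the targeted genes Hbs1l and Pelo fell as labelled: in MEFs Hbs1l had 1.51 to 2.59 counts scaled to library size (CPM) in Hbs1l-/- libraries and 32.6 to 39.5 in controls, and Pelo had 2.00 to 2.98 in Pelo-/- libraries and 31.8 to 38.4 in controls. Upf2 went against its label, at 113 to 119 CPM in the libraries labelled Upf2-/- and 49.2 to 58.3 in controls, and a count over the whole gene cannot show whether an exon was deleted. Transcripts annotated as targets of nonsense-mediated decay moved as the label says: 434 of 2945 tested (14.7%) were higher in RNA labelled Upf2-/-, beside 4.37% of all transcripts, and 0.261% and 0.139% were higher in Hbs1l-/- and Pelo-/-. Since the gene itself went the other way, these libraries are called those labelled Upf2-/- throughout. The 10 fibroblast markers summed to 43310 CPM or more in every MEF footprint library, and all 8 granule neuron markers were abundant enough to be tested in the cerebellum.

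NF-kB is a dimer of REL proteins that is kept in the cytoplasm by inhibitors of the IkB family until a signal, such as a cytokine or a microbial product, leads to their destruction. The freed dimer then enters the nucleus and binds short kB sites near inflammatory genes. Some of its targets are its own inhibitors, so that an episode of NF-kB activity leaves behind more of the proteins that end it.

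The promoters are shown because the kB site is the sequence feature that defines NF-kB target genes. RefSeq promoters of GRCm38.p6, from 250 bases before to 50 bases after the start, were at hand for 7 of the 10 members, not for Nfkbiz, Nfkb1 and Relb. A match to the kB consensus on either strand lay in 1480 of all 32851 promoters (4.51%). Counted by gene, since a gene can have several promoters, it lay in 1388 of 27025 genes (5.14%) and in 4 of these 7 members, namely Nfkbia, Nfkbie, Nfkb2 and Tnfaip3. The looser letters GGGNNNNNCC, on either strand and overlapping the consensus, were in 53.5% of all genes and in 7 of 7 members, but also in 10 of 10 receptors and 5 of 5 granule neuron markers. A match is a description of the letters and not a site. Among the other NF-kB target genes with a RefSeq promoter, 11 of 29 (37.9%) held the consensus, among kinases and adaptors of the pathway 2 of 23 (8.7%), and among interferon-stimulated genes 1 of 8 (12.5%). The other lists of the pathway held it in 3 of 5 (other REL and IkB genes), 5 of 9 (negative regulators) and 3 of 10 genes (receptors). Marker lists of cell types, at most 9 genes each, ranged from 0 of 8 for neutrophils and 0 of 3 for epithelium through 1 of 9 for macrophages, 1 of 5 for endothelium and 1 of 4 for fibroblasts to 2 of 5 for granule neurons. The 250 bases before the start are printed 5′ to 3′ along the gene's strand, with the consensus matches in capitals, for 2 members that have a match and for 2 that have none.
Nfkbia, chr12:55492648-55492897, minus strand: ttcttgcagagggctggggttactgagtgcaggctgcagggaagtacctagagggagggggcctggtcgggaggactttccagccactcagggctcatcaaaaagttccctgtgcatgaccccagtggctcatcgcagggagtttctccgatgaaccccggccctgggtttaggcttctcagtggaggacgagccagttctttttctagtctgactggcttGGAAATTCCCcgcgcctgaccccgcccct
Nfkb2, chr19:46304487-46304736, plus strand: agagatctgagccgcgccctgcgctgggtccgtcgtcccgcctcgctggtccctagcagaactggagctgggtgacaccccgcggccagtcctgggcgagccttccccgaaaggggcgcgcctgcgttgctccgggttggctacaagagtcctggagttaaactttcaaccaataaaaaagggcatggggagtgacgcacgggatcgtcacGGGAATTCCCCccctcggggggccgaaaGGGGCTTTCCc
Lcn2, chr2:32387740-32387989, minus strand: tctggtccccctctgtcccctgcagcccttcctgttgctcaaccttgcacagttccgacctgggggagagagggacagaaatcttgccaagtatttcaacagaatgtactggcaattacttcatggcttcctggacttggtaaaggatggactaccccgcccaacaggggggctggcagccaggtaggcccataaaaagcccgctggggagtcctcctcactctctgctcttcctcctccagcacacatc
Acod1, chr14:103046762-103047011, plus strand: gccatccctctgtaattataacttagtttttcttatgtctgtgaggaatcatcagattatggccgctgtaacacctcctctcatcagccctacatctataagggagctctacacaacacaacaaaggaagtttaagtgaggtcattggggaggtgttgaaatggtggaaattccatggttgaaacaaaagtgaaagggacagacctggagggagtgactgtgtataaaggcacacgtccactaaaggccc

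In Nfkbia the match began 29 bases before the start. Nfkb2 had overlapping matches 39 and 38 bases before this start and another that began 11 bases before it, and this promoter is the first of its 3 in RefSeq. In the 250 bases of Lcn2 and Acod1 these letters were not found. The matches of the other 2 genes are shown in 30 bases each, since their letters differ from those of Nfkbia within the consensus.
Nfkbie, chr17:45555584-45555613, plus strand, match from 106 bases before the start: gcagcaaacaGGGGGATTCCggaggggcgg
Tnfaip3, chr10:19015516-19015545, minus strand, match from 125 bases before the start: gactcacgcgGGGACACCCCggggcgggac
Tnfaip3, chr10:19015403-19015432, minus strand, match from 12 bases before the start: aatttccatcGGAAATCCCCctgttggcaa

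Footprints of 8 members were at a higher level in every Pelo-/- MEF library than in every control by at least 2-fold on average, those of Rela were higher by 1.22-fold and those of Tnfaip3 overlapped with controls. Of all genes, 55.4% had groups that did not overlap there, and nothing is read from the members' count. In the other mutants 8 members could be tested: Tnfaip3 fell in both, by more than it moved in Pelo-/-, and the fitted changes of the other 7 were at most 1.47-fold. Whether more of these mRNAs were translated per cell, or more cells of a kind that makes them were present, cannot be told apart in bulk libraries. The numbers of members past an adjusted p of 0.05 were 5 of 8 in Hbs1l-/-, where 34.1% of all genes passed, and 3 of 8 in those labelled Upf2-/-, where 43.4% passed. In Pelo-/- footprints 44.1% of all genes passed. The count of members there, 9 of 10, comes from values that may have guided the choice and includes Lcn2 and Acod1, which passed the filter on low counts through the Pelo-/- libraries alone and were bound to differ, so nothing is read from it.

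**Figure D1:**
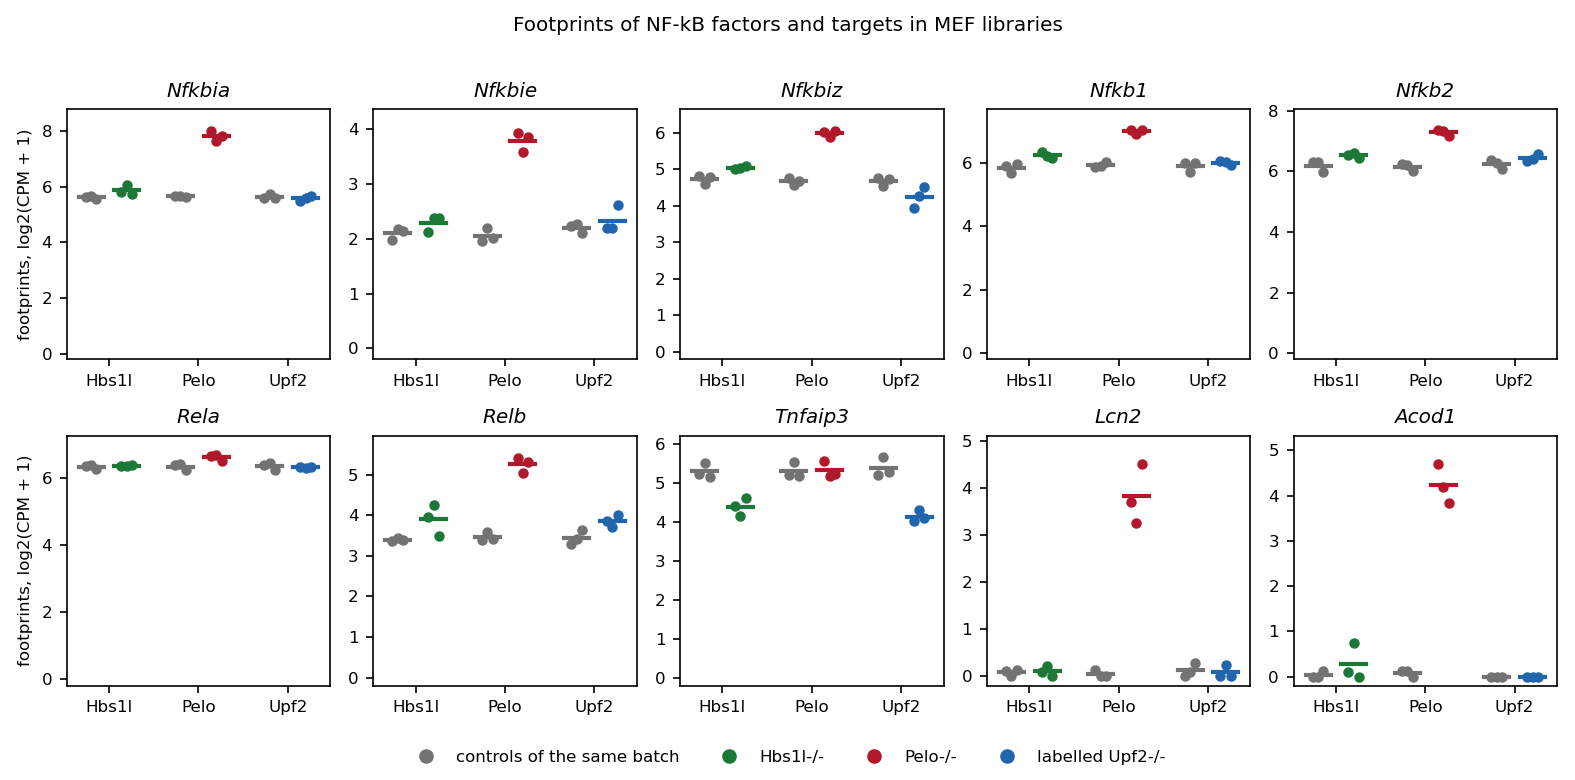
Footprints of the 10 genes in each MEF library, as log2(CPM + 1), with 3 points per group and a line at the group mean. Grey points are the controls of the same batch, green Hbs1l-/-, red Pelo-/- and blue the libraries labelled Upf2-/-. Pelo-/- points lie above controls for every gene but Tnfaip3, which is lower than controls in the other 2 mutants.

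The inhibitors come first. Nfkbia, on chr12:55489410-55492647 (GRCm38, as for all coordinates below), encodes IkB-alpha, the IkB protein that is made again first after activation. Its footprints were 255, 201 and 226 CPM in Pelo-/- and 49.6, 49.4 and 49.0 in controls, a log2 fold change of 2.203 ± 0.09 (SE) or 4.60-fold. The groups lay far apart and the controls were almost identical. In Hbs1l-/- Nfkbia was 55.4, 65.5 and 52.6 CPM against 49.0, 50.1 and 45.9, which did not overlap but missed the threshold (0.25 ± 0.09, adjusted p = 0.0526). It passed without mutant replicate 3 (adjusted p = 0.0294) and under 4 other alternatives, with adjusted p of 0.0304 to 0.0483. In the libraries labelled Upf2-/- it was 43.7, 47.6 and 49.2 against 46.6, 52.8 and 47.4 CPM, with overlapping groups.

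Nfkbie, on chr17:45555703-45563169, encodes IkB-epsilon, a slower IkB protein. It was sparse, at 14.4, 11.01 and 13.5 CPM in Pelo-/- and 2.90, 3.58 and 3.03 in controls (log2 fold change 2.02 ± 0.17). All Pelo-/- libraries exceeded all controls. The log2 fold change was 0.23 ± 0.23 (adjusted p = 0.474) in Hbs1l-/- and 0.17 ± 0.22 (adjusted p = 0.567) in those labelled Upf2-/-.

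Nfkbiz, on chr16:55811375-55838899, encodes IkB-zeta, an atypical nuclear IkB protein that helps to switch on a second wave of genes, Lcn2 among them. It was 64.2, 58.3 and 65.0 CPM in Pelo-/- and 26.3, 22.8 and 24.8 in controls (1.34 ± 0.09). In Hbs1l-/- it rose slightly, from 27.1, 23.2 and 26.8 to 31.4, 31.8 and 32.9 CPM (0.32 ± 0.10, adjusted p = 0.0218). In those labelled Upf2-/- it fell, from 26.3, 22.5 and 25.6 to 14.4, 18.3 and 22.1 CPM (-0.43 ± 0.14, adjusted p = 0.0253). In footprints Nfkbiz was thus the only member called in opposite directions in these 2 mutants, and the difference of the 2 log2 fold changes, -0.75 ± 0.17, passed (adjusted p = 0.018), in a test where 4.93% of all genes did. It was the only member past that test. The test counts the controls of both batches as 6 libraries, although same-numbered ones were nearly alike, so its degrees of freedom exceed what distinct samples give. With the mutant libraries compared directly, without controls, an alternative added after seeing the data, the difference was -0.81 ± 0.13 (adjusted p = 0.00161). The call in Hbs1l-/- was lost without mutant replicate 1, mutant replicate 3 or control replicate 2 (adjusted p = 0.0534, 0.0654 and 0.0834). That in those labelled Upf2-/- was lost without mutant replicate 1, mutant replicate 2 or control replicate 1 (adjusted p = 0.0882, 0.0781 and 0.0903), and the difference of the effects without mutant replicate 2 or control replicate 1 of that batch (0.0505 and 0.0573).

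Among the REL proteins, Nfkb1 (chr3:135584655-135691547) and Nfkb2 (chr19:46304320-46312385) encode the precursors p105 and p100, which hold their own dimers in the cytoplasm as IkB proteins do until they are cut to p50 and p52. Nfkb1 was 132, 121 and 133 CPM in Pelo-/- and 58.3, 59.3 and 64.0 in controls (1.09 ± 0.07). Nfkb2 was 165, 159 and 143 against 73.9, 72.7 and 63.5 CPM (1.15 ± 0.08). Both precursors were therefore at about the same multiple of their controls, 2.12 and 2.22. In Hbs1l-/- they rose by less, Nfkb1 from 58.9, 51.1 and 62.0 to 81.7, 73.7 and 70.8 CPM (0.40 ± 0.09, adjusted p = 0.00386) and Nfkb2 from 77.3, 77.3 and 61.7 to 92.8, 95.7 and 85.9 CPM (0.34 ± 0.09, adjusted p = 0.0114). In those labelled Upf2-/- neither passed, with log2 fold changes of 0.09 ± 0.09 and 0.21 ± 0.09 (adjusted p = 0.451 and 0.0811). Nfkb2 passed there with controls summed over batches (0.25, adjusted p = 0.0447).

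Rela (chr19:5637483-5648130) encodes p65, the activating partner of p50 in the classical dimer, and Relb (chr7:19606217-19629438) the partner of p52 in the alternative pathway. Rela moved least of the subunits, at 99.6, 103 and 90.4 CPM in Pelo-/- and 82.7, 83.9 and 73.8 in controls (0.28 ± 0.08). Without control replicate 3 its log2 fold change was 0.23 and no longer past the threshold. Relb was 41.7, 32.0 and 38.7 CPM in Pelo-/- and 9.51, 11.1 and 9.63 in controls (1.89 ± 0.13), the largest multiple among the subunits at 3.71. It also rose in Hbs1l-/-, from 9.29, 9.91 and 9.47 to 14.6, 18.3 and 10.3 CPM (0.56 ± 0.18, adjusted p = 0.0277), with 1 mutant library close to the controls. In those labelled Upf2-/- it rose from 8.85, 9.59 and 11.5 to 13.5, 12.1 and 15.2 CPM (0.44 ± 0.15, adjusted p = 0.0329). The call of Relb in Hbs1l-/- was lost without mutant replicate 1, mutant replicate 2 or control replicate 1 (adjusted p = 0.0973, 0.104 and 0.085). That in those labelled Upf2-/- was lost with DESeq2 (adjusted p = 0.0689) and without mutant replicate 1 or 3 or control replicate 1 or 2 (adjusted p = 0.0706, 0.118, 0.124 and 0.0743).

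Tnfaip3, on chr10:19000910-19015657, encodes A20, an enzyme that trims ubiquitin chains and so ends NF-kB signalling, and is itself a classical NF-kB target. Its footprints were 46.6, 35.6 and 36.7 CPM in Pelo-/- and 35.9, 45.7 and 35.4 in controls, so the groups overlapped and their means were nearly equal (0.02 ± 0.13). In Hbs1l-/- it fell from 36.7, 44.9 and 34.8 to 20.5, 16.8 and 23.5 CPM (-0.92 ± 0.13, adjusted p = 0.00012). In those labelled Upf2-/- it fell from 35.8, 50.05 and 38.0 to 15.2, 18.8 and 16.1 CPM (-1.29 ± 0.14, adjusted p = 3.91e-05). It was thus the member with the largest change in these 2 mutants, and in both the groups were well apart.

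The last 2 genes are products rather than parts of the pathway. Lcn2 (chr2:32384633-32388252) encodes lipocalin 2, a secreted protein that binds bacterial iron carriers, and Acod1 (chr14:103046977-103056573) the enzyme that makes itaconate in activated macrophages. Lcn2 was 12.1, 8.51 and 21.7 CPM in Pelo-/- and 0.088, 0 and 0 in controls, or 907 counts against 1, a ratio of 543 per library size with an exact 95% interval of 97.2 to 21473. Acod1 was 24.8, 17.3 and 13.2 CPM against 0.088, 0.0813 and 0, or 1044 counts against 2, a ratio of 313 with an interval of 86.3 to 2584. These intervals cover counting error only. In the other 2 mutants both genes stayed near 0, at 2 and 5 counts in all Hbs1l-/- libraries (Lcn2 and Acod1) and 2 and 0 in those labelled Upf2-/-.

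The level per kilobase of coding exons, scaled to the same total in every library as TPM is, which allows genes to be compared, put Nfkbia first in every group. In controls of the Pelo batch the mean levels were 68.7 for Nfkbia and 62.4 for Rela, then 33.4 for Nfkb2, 27.1 for Nfkb1, 22.002 for Tnfaip3, 14.8 for Nfkbiz, 7.90 for Relb and 3.54 for Nfkbie, with Lcn2 and Acod1 under 0.06. The ranges of Nfkb1 (26.2 to 29.0) and Tnfaip3 (20.2 to 25.5) lay close to each other without overlap. In Pelo-/- Nfkbia reached 314, and Rela and Nfkb2 became neighbours at 75.5 and 73.6 with overlapping ranges. Lcn2 and Acod1, at 21.6 and 16.4, came to lie beside Tnfaip3 at 22.2. In control embryos the order began with Nfkbia (39.2), Rela (22.9) and Nfkb1 (16.0), and in control cerebella with Nfkbia (62.0), Rela (21.5) and Nfkbie (19.0). In cerebella Nfkb2 was 2.26 and Relb 2.30. Levels between tissues were normalized separately and are set side by side only.

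**Figure D2:**
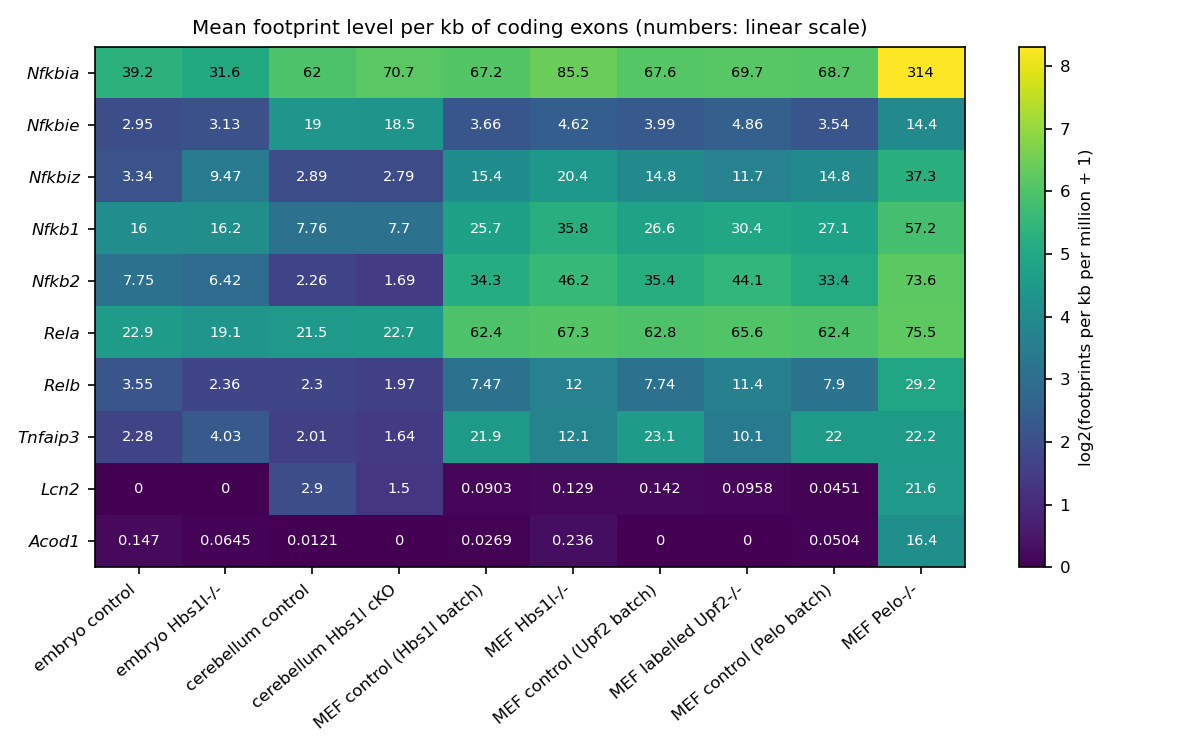
Mean footprint level per kilobase of coding exons, scaled to the same total in every library, for each gene (rows) and group of 3 libraries (columns), coloured on a log2(level + 1) scale and printed on the linear scale. Nfkbia is the highest of the 10 in every group, and Lcn2 and Acod1 are above 10 in Pelo-/- MEFs only.

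In embryos and cerebella the question was whether loss of Hbs1l changes the same genes in a tissue. No member passed in either, of 8 tested in embryos and 9 in cerebella by edgeR's quasi-likelihood test, and 0 passed with DESeq2. At an unadjusted p under 0.05 in edgeR's test there was 1 in embryos, Nfkbiz, and 0 in cerebella, beside 2121 of 11416 and 1936 of 14430 genes in all. Of all genes, 1.87% passed in embryos and 0.0624% in cerebella. Nfkbiz was 14.2, 7.30 and 34.5 CPM in Hbs1l-/- embryos and 5.93, 5.07 and 9.92 in Wildtype, overlapping groups with a wide spread (1.39 ± 0.49, adjusted p = 0.153). It passed under 3 alternatives: with no filter on low counts (adjusted p = 0.0237), with the replicate number as a block (0.0482) and without Hbs1l-/- embryo replicate 1 (0.0462). Nfkbia in embryos was 27.9, 21.4 and 31.2 CPM against 43.5, 33.0 and 29.0 (-0.39 ± 0.22, adjusted p = 0.365). In cerebella Nfkbia was 54.7, 58.2 and 58.5 against 51.1, 53.5 and 53.1 CPM (0.12 ± 0.10, adjusted p = 0.645), narrowly apart. Lcn2 was detected in cerebella, unlike in embryos, where it had 0 counts in all 6 libraries. It was 0.878, 1.82 and 0.598 CPM in Hbs1l cKO cerebella and 3.83, 1.56 and 1.23 in controls, so the groups overlapped (adjusted p = 0.465). The 6 neutrophil markers tested there had a median log2 fold change of -1.49, with 0 called. Among them S100a8 ranged from 1.81 to 8.79 CPM in Hbs1l cKO cerebella and from 2.62 to 26.1 in controls. The part of these cells in the level of Lcn2 was not tested. Acod1 had at most 2 counts per group in either tissue.

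The RNA libraries asked whether these differences were present in the mRNA. In Pelo-/- 3 of 8 members passed, a share of 37.5% that is near the 32.1% of all genes. Nfkbia RNA was 29.1 and 31.8 CPM in Pelo-/- and 30.7, 29.7 and 31.7 in controls, so the groups overlapped (-0.02 ± 0.09, adjusted p = 0.917). Nfkbie was 3.66 and 4.03 against 3.82, 4.14 and 3.90 CPM (-0.04 ± 0.15, adjusted p = 0.86), Nfkb1 had a log2 fold change of 0.15 ± 0.12 (adjusted p = 0.355) and Nfkbiz one of 0.38 ± 0.16 (adjusted p = 0.102). Tnfaip3, level in footprints, rose in RNA from 16.8, 15.5 and 11.5 to 28.9 and 32.0 CPM (1.07 ± 0.17, adjusted p = 0.00442). In TPM, the level per transcript length that kallisto gives, it was 10.7 and 11.4 in Pelo-/- and 3.60 to 5.24 in controls. Relb (0.33 ± 0.10, adjusted p = 0.0437) and Nfkb2 (0.30 ± 0.09, adjusted p = 0.0429) passed narrowly. Without Pelo-/- replicate 1 their adjusted p was 0.22 and 0.207, without replicate 2 it was 0.184 and 0.181, and without control replicate 3 it was 0.108 and 0.0885. Relb was also lost without control replicate 1 or 2 (0.0646 and 0.0534), and with DESeq2 (0.0506), while Nfkbiz passed without control replicate 2 (0.0398). With no filter on low counts, with the replicate number as a block and in a fit over all MEF libraries, both Relb (0.228, 0.211 and 0.0989) and Nfkb2 (0.103, 0.106 and 0.0598) were lost. Lcn2 and Acod1 were at most 0.147 and 0.0684 TPM in every RNA library of any group and were not tested.

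In Hbs1l-/- RNA 6 of 8 members passed, where 23.1% of all genes did. Macrophage markers were higher in the same libraries, 9 of 13, with a sum of 185 to 256 TPM against 88.3 to 148 in controls. Of 10 fibroblast markers 6 were higher and 1 lower (median 0.72). Of 6 endothelial markers 0 were higher and 3 lower (-0.64), with a sum of 6.97 to 8.26 TPM against 16.5 to 22.5 in controls. The part of any of these cells in the members' levels was not tested. Relb rose from 12.8, 13.0 and 12.3 to 21.95, 21.2 and 20.8 CPM (0.75 ± 0.10, adjusted p = 0.00193), and Nfkbia from 31.3, 29.2 and 31.8 to 49.4, 44.0 and 39.3 CPM (0.52 ± 0.11, adjusted p = 0.0108). Nfkb2 (0.48 ± 0.10, adjusted p = 0.00832), Nfkb1 (0.45 ± 0.11, adjusted p = 0.0202) and Nfkbie (0.50 ± 0.14, adjusted p = 0.032) rose as well. The call of Nfkbie was lost without any 1 of the 6 libraries, with adjusted p of 0.057 (without mutant replicate 3) to 0.0909 (without control replicate 3). That of Nfkb1 was lost without mutant replicate 1 or 2 or control replicate 1 or 2 (adjusted p = 0.0534, 0.0718, 0.0575 and 0.058). With the replicate number as a block both Nfkb1 and Nfkbie were lost (0.0536 and 0.0605), which left 4 of 8. Nfkbie was also lost with no filter on low counts (0.0563) and with protein-coding transcripts alone (0.0628). Tnfaip3 fell from 17.1, 15.2 and 11.5 to 7.64, 7.58 and 9.27 CPM (-0.83 ± 0.17, adjusted p = 0.00873).

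In RNA labelled Upf2-/- 3 of 8 members passed, where 20% of all genes did. Nfkbia fell from 31.8, 29.7 and 32.2 to 22.6, 22.9 and 22.7 CPM (-0.46 ± 0.11, adjusted p = 0.0183), the opposite of its direction in Hbs1l-/-. Relb rose (0.50 ± 0.14, adjusted p = 0.0342), as did Nfkbie (0.52 ± 0.16, adjusted p = 0.0414). The call of Nfkbia was lost without mutant replicate 2 or control replicate 1 or 3 (adjusted p = 0.0649, 0.0581 and 0.0843). The calls of Nfkbie and Relb were lost without mutant replicate 2 or 3 or any of the 3 controls, with adjusted p of 0.0795 to 0.133 and 0.0757 to 0.113. When only protein-coding transcripts were summed, both Relb (0.36, adjusted p = 0.168) and Nfkbie (0.55, adjusted p = 0.0697) were lost, and Nfkbie also with no filter on low counts (0.0601) and with the replicate number as a block (0.0568). Tnfaip3 was 20.2, 14.6 and 15.9 CPM in RNA against 17.4, 15.5 and 11.7, with overlapping groups (0.19 ± 0.18, adjusted p = 0.483).

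**Figure D3:**
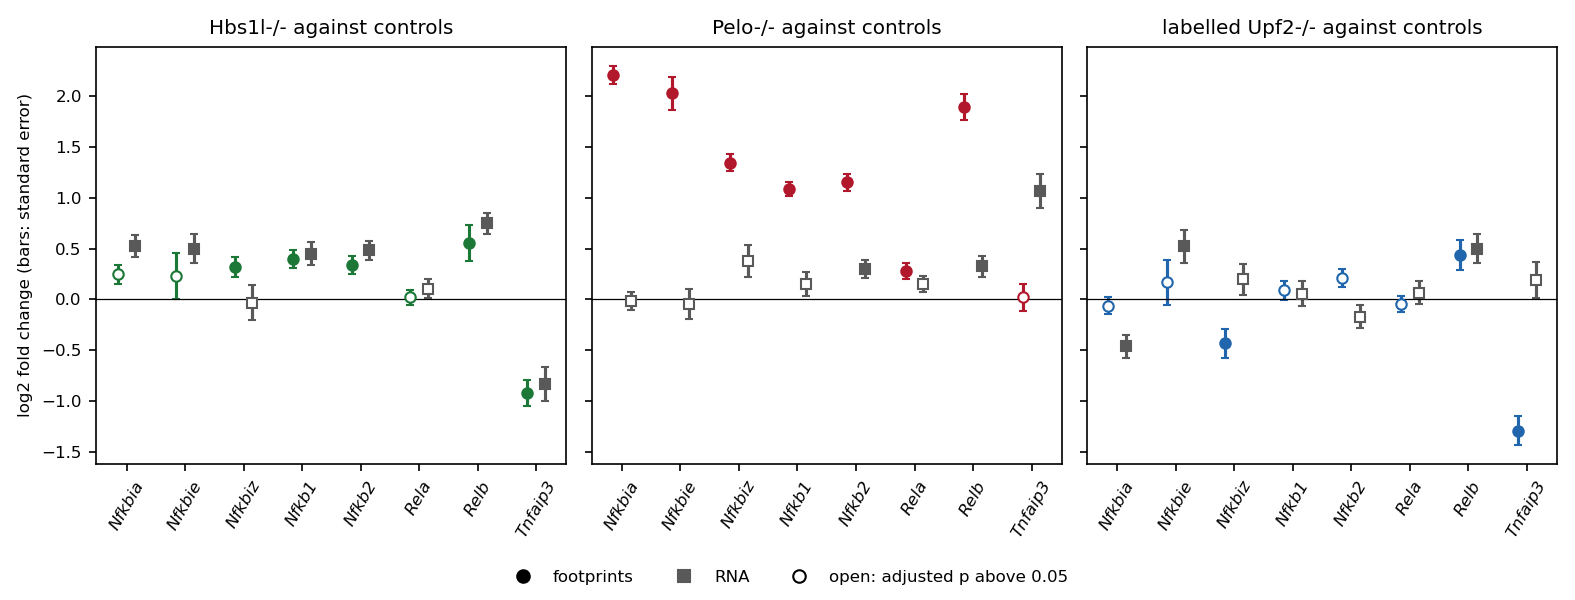
Log2 fold change of mutant against control MEFs for the 8 members tested in every comparison, with standard errors as bars. Circles are footprints and squares RNA, filled where the adjusted p was at or under 0.05. In Pelo-/- the circles of Nfkbia, Nfkbie and Relb are near 2 while their squares are at 0.33 or less, and Tnfaip3 shows the reverse order.

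Translational efficiency, the footprint level relative to RNA, was compared between mutant and control in 1 model over both kinds of library. In Pelo-/- its log2 change was 2.22 ± 0.13 for Nfkbia, 2.07 ± 0.22 for Nfkbie, 1.57 ± 0.16 for Relb, 0.96 ± 0.18 for Nfkbiz, 0.94 ± 0.13 for Nfkb1 and 0.85 ± 0.13 for Nfkb2, whereas it was 0.14 ± 0.12 for Rela and -1.05 ± 0.23 for Tnfaip3. These values rest on the Pelo-/- footprints and are a description. Of all genes, 40.5% passed, and nothing is read from the count of members, 9 of 10, in which Lcn2 and Acod1 were tested through their Pelo-/- footprints alone. The calls of these 2 were lost without RNA control replicate 3, that of Acod1 also without footprint control replicate 2 or 3 or RNA Pelo-/- replicate 1. Footprint and RNA libraries have different batch labels, and the labels do not say that they came from the same cultures, so a change of translation and a difference between cultures cannot be told apart. In Hbs1l-/- 0 of 8 members passed by edgeR's test, where 0.0152% of all genes did, and 0 passed with DESeq2. At an unadjusted p under 0.05 in edgeR's test there were 0 of the 8, beside 2116 of 13146 genes in all. In those labelled Upf2-/- 2 of 8 members passed, where 18% of all genes did. Tnfaip3 fell by 1.4996 ± 0.25 on the log2 scale (adjusted p = 0.00148), and Nfkbiz by 0.65 ± 0.21 (adjusted p = 0.0457). The second was lost without any 1 of 9 of the 12 libraries, with adjusted p of 0.0538 (without RNA control replicate 1) to 0.132 (without RNA control replicate 3). With DESeq2 Nfkbia passed as well (0.40, adjusted p = 0.0319).

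In footprints the effect in Pelo-/- was set beside those in Hbs1l-/- and in the libraries labelled Upf2-/-, as a description. Among the 8 members abundant in every group the differences were largest for Nfkbia, 1.96 ± 0.13 and 2.27 ± 0.12 on the log2 scale, and smallest for Rela, 0.27 ± 0.10 and 0.33 ± 0.11. Tnfaip3 differed by 0.95 ± 0.20 and 1.31 ± 0.21, being level in Pelo-/- and lower in the others. The fitted differences of Lcn2 (8.39 ± 2.82 and 8.72 ± 2.39) and of Acod1 from Hbs1l-/- (5.92 ± 3.40) rest on 1 to 5 counts in each group other than Pelo-/-. That of Acod1 from the libraries labelled Upf2-/- has no usable error, since both groups of that batch had 0 counts. Of all genes 5.55% and 13.0% passed these tests. The counts of members, 7 of 10 and 8 of 10, come from values that may have guided the choice, and nothing is read from them.

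In RNA the mutants were tested against each other within 1 batch. Nfkbia was lower in Pelo-/- than in Hbs1l-/- (-0.50 ± 0.12, adjusted p = 0.0163), and lower still in those labelled Upf2-/- (-0.97 ± 0.12 against Hbs1l-/-, adjusted p = 0.000551). Tnfaip3 was higher in Pelo-/- than in Hbs1l-/- (1.94 ± 0.13, adjusted p = 0.000202) and than in those labelled Upf2-/- (0.91 ± 0.17, adjusted p = 0.00409). The members that passed were 4 of 8 for Pelo-/- against Hbs1l-/-, where 35.2% of all genes passed, 4 of 8 for those labelled Upf2-/- against Hbs1l-/-, where 27.1% passed, and 3 of 8 for Pelo-/- against those labelled Upf2-/-, where 28.9% passed. Of these calls, those of Nfkbia, Nfkbie and Relb between Pelo-/- and Hbs1l-/- and of Nfkbia and Nfkb2 between Pelo-/- and those labelled Upf2-/- were lost without either Pelo-/- library, with adjusted p of 0.0779 to 0.257 and 0.0973 to 0.246. Nfkbia was also lost without Hbs1l-/- replicate 2 (0.0554) in the first and without replicate 2 of those labelled Upf2-/- (0.057) in the last. In the first, Nfkbie was also lost without any 1 Hbs1l-/- library (0.0573 to 0.0882) and with DESeq2 (0.0517), and Relb without Hbs1l-/- replicate 2 or 3 (0.0568 and 0.0503). The call of Nfkb1 between those labelled Upf2-/- and Hbs1l-/- was lost without Hbs1l-/- replicate 1 or 2 or replicate 1 or 3 of those labelled Upf2-/- (0.0581 to 0.0797). Nfkb1 passed between Pelo-/- and Hbs1l-/- with no filter on low counts (0.0265) and without Hbs1l-/- replicate 3 (0.043). Rela passed between Pelo-/- and those labelled Upf2-/- without replicate 3 of the latter (0.0489). The calls of Tnfaip3 kept their side of the threshold in every leave-one-out fit.

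Among single transcripts of the members 1 of 26 tested passed in Hbs1l-/- (3.85%), 1 of 26 in Pelo-/- (3.85%, Relb-210) and 2 of 30 in RNA labelled Upf2-/- (6.67%), beside 1.31%, 2.37% and 5.35% of all transcripts. Relb-210 is annotated as a target of nonsense-mediated decay. It was 2.40, 1.85 and 1.69 TPM in the libraries labelled Upf2-/- and 0.588, 0.693 and 0.929 in controls (log2 fold change 1.38 ± 0.28, adjusted p = 0.0449). In both Pelo-/- libraries it was listed at 0, and it was 0, 0.518 and 0.264 TPM in Hbs1l-/-. The other 2 were the protein-coding Nfkbia-201, which fell in the libraries labelled Upf2-/- (-0.56 ± 0.09, adjusted p = 0.027), and Nfkb2-201, which rose in Hbs1l-/- (0.75 ± 0.12, adjusted p = 0.0479). The uncertainty of assigning reads to isoforms is not part of these p-values.

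The rest of the pathway was taken from lists of 99 genes in 5 groups. In Pelo-/- footprints 34 of the 39 other NF-kB target genes tested, of 42 listed, were called higher and 3 lower, with a median log2 fold change of 2.28 against 0.0037 over all genes. Of these 39 genes 9 were too sparse to be tested in the other 2 mutants and came in through the Pelo-/- comparison alone, so that they were likely to be called. Among the 30 tested in all 3 mutants 25 were higher and 3 lower, with a median of 1.71. Their summed footprints were 6446 to 7634 CPM in Pelo-/- and 2835 to 2971 in controls. Cxcl5, a neutrophil attractant, was 358 ± 119 CPM (SD, n = 3) against 2.87 ± 0.96, and Cxcl10, a T cell attractant that interferon also induces, was 326 ± 140 against 4.46 ± 2.32. Saa3, an acute-phase protein, had 2773 counts against 11 and Hp, haptoglobin, 1808 against 6, which are ratios of 151 (84.2 to 303) and 180.4 (82.7 to 492). In Hbs1l-/- footprints 11 of 30 were higher and 8 lower (median 0.11 against -0.0069 over all genes), and in those labelled Upf2-/- 12 and 10 of 30 (median 0.03 against 0.00092). In either direction 93.3%, 63.3% and 73.3% of these 30 genes were called in the 3 mutants, beside 44.1%, 34.1% and 43.4% of all genes. The list was chosen with earlier results of these data known, so these shares are a description and nothing is supported with them.

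Among the named targets some rose and some fell in these 2 mutants. Cxcl5 rose from 1.72 ± 0.76 to 19.5 ± 6.47 CPM in Hbs1l-/- and from 1.66 ± 0.84 to 10.8 ± 3.44 in those labelled Upf2-/- (adjusted p = 3.51e-06 and 7.94e-05). Ptgs2, the enzyme of inducible prostaglandin synthesis, fell from 993 ± 119.9 to 522 ± 108 CPM in Hbs1l-/- (-0.93 ± 0.12). Mmp9, a matrix protease, fell from 21.8 ± 2.60 to 7.75 ± 2.14 CPM in those labelled Upf2-/- (-1.51 ± 0.18).

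In RNA 15 of 34 other targets rose and 1 fell in Hbs1l-/- (median 0.35 against -0.011 over all genes), 9 of 32 rose and 3 fell in Pelo-/- (median 0.10 against -0.014) and 5 of 33 rose and 2 fell in those labelled Upf2-/- (median -0.01 against -0.022). In either direction 47.1%, 37.5% and 21.2% of the targets were called in RNA of these 3 mutants, beside 23.1%, 32.1% and 20% of all genes, so the last 2 shares lay near the background. The chemokine genes Ccl7 (-1.53 ± 0.14) and Ccl2 (-1.21 ± 0.19) fell in Pelo-/- RNA, while Mmp9 (1.39 ± 0.14) and Csf1, the macrophage growth factor (0.97 ± 0.11), rose. In RNA labelled Upf2-/- the largest change among the targets was that of Gadd45b, a stress gene, from 42.9 ± 7.64 to 192 ± 13.6 CPM (2.17 ± 0.14, adjusted p = 4.52e-06).

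**Figure D4:**
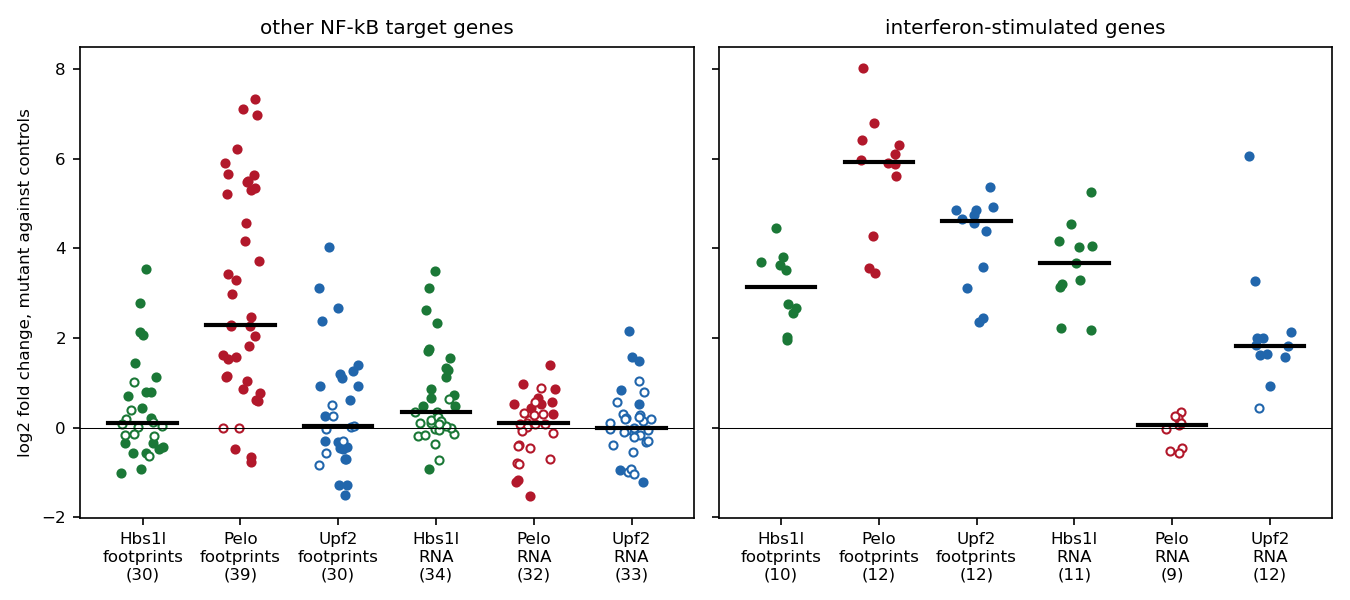
Log2 fold change of mutant against control MEFs for the other NF-kB target genes (left) and interferon-stimulated genes (right) in footprints and RNA. Each point is a gene, filled where the adjusted p was at or under 0.05, the bar is the median and the number tested stands in brackets. For Pelo-/- the medians are 2.28 and 5.93 over the 39 and 12 genes tested in footprints. They are 0.10 and 0.06 over the 32 and 9 tested in RNA, which are not the same sets. Of the 39 targets 9 were tested in Pelo-/- footprints alone, and over the other 30 the footprint median was 1.71.

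Upstream of NF-kB the genes of the lists moved less in Pelo-/- footprints, where 44.1% of all genes were called in either direction. Of 12 receptors tested 7 were higher and 1 lower, led by the microbial sensors Tlr2 (from 3.78 ± 0.74 to 34.4 ± 12.3 CPM) and Tlr3 (from 4.00 ± 0.56 to 17.4 ± 4.88) and the cytokine receptors Tnfrsf1b (1.54 ± 0.12) and Il1r1 (1.52 ± 0.25). Of 27 kinases and adaptors 6 were higher and 4 lower, a share of 37.0% that does not exceed the background, among them the adaptor Myd88 (1.06 ± 0.12) and the ubiquitin ligase Rnf31 (0.97 ± 0.10). Of the other REL and IkB genes 2 of 4 were higher, Bcl3 (3.39 ± 0.22) and Nfkbib (0.57 ± 0.10). Of 12 other negative regulators 5 were higher and 2 lower, with Zc3h12a, a ribonuclease that destroys cytokine mRNAs, from 5.04 ± 0.51 to 21.5 ± 1.30 CPM, and Usp18, which also stands in the interferon list, from 1.75 ± 1.09 to 191 ± 29.5. In Hbs1l-/- footprints the counts were 5 higher and 2 lower of 12 receptors and 5 and 1 of 27 kinases and adaptors, and in those labelled Upf2-/- 4 and 1 of 12 and 6 and 2 of 27. The shares of kinases and adaptors, 22.2% and 29.6%, lay below the 34.1% and 43.4% of all genes. Those of receptors, 58.3% and 41.7%, lay above in Hbs1l-/- and below in those labelled Upf2-/-.

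Lists of other kinds were also higher in Pelo-/- footprints, where all 12 interferon-stimulated genes were called higher (median 5.93). So were 10 of 10 tested in Hbs1l-/- (3.13) and 12 of 12 in those labelled Upf2-/- (4.60). Over the 10 tested in all 3 mutants the medians were 5.90 in Pelo-/-, 3.13 in Hbs1l-/- and 4.47 in those labelled Upf2-/-. Of all genes 44.1%, 34.1% and 43.4% were called in these footprints. In RNA 11 of 11 rose in Hbs1l-/- and 11 of 12 in those labelled Upf2-/-, and the median over the 9 tested in Pelo-/- was 0.06. Over the 8 members tested in all 3 mutants the median in footprints was 1.25 in Pelo-/-, 0.28 in Hbs1l-/- and 0.02 in those labelled Upf2-/-, and over the 11 macrophage markers tested in all 3 it was 1.78, 0.75 and 0.43, in the same order. All 12 macrophage markers tested, of 13 listed, were called higher in Pelo-/- footprints (median 1.80). Their summed level was 498 to 717 CPM against 143 to 198 in controls, with Lyz2, Adgre1 and Csf1r the most abundant in Pelo-/- and Itgam near 0 in controls, at 4 counts in all 3. In Hbs1l-/- footprints 9 of 12 rose (75.0%, beside 34.1% of all genes, 256 to 357 CPM in sum). In those labelled Upf2-/- 5 of 11 rose (201 to 247 CPM), a share of 45.5% that is close to the 43.4% of all genes. In RNA 9 of 13 rose in Hbs1l-/- (median 0.79) and 1 of 13 in Pelo-/- (0.21), and the median was -0.21 in those labelled Upf2-/-. Their summed RNA level was 185 to 256, 129.9 to 211 and 78.3 to 155 TPM, and 88.3 to 148 in controls. Of 8 neutrophil markers 2 could be tested in Pelo-/- footprints. Their sum was 5.05 to 19.2 CPM in Pelo-/- and 0.0889 to 0.524 in controls, where S100a9, Mpo, Elane, Ngp and Ltf were at 0. In Pelo-/- RNA the neutrophil sum was 0.497 to 0.717 TPM. Markers of other cells moved too. Of 10 fibroblast markers 7 were higher and 1 lower in Pelo-/- footprints (median 0.82), 8 and 1 in Hbs1l-/- (0.51) and 7 and 2 in those labelled Upf2-/- (0.58), and of 6 endothelial markers tested in Pelo-/- 2 were higher and 3 lower (-0.56), with a sum of 28.8 to 36.9 CPM against 86.5 to 104 in controls. In Hbs1l-/- footprints 0 of 5 endothelial markers were higher and 3 lower (-0.65), and in those labelled Upf2-/- 1 was higher and 2 lower of 5 (-0.14). Of 5 epithelial markers tested in Pelo-/- footprints 3 were higher and 2 lower (1.765), but 2 of the 5 were not tested in all 3 mutants. Over the other 3 the median was -0.70 in Pelo-/-, -0.43 in Hbs1l-/- and -0.81 in those labelled Upf2-/-. The part of these cells in the members' levels was not tested.

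Finally, the genes whose footprints followed those of 4 members most closely were taken over 12 points, the 9 mutant libraries and the mean control of each number, among 9851 genes for Nfkbia and Nfkb2 and 9852 for the others. The points share 3 controls and the Pelo-/- libraries set much of the range, so the Pearson r on log2(CPM + 1) is a description. For Nfkbia they were Ccl3 (r = 0.987), Saa3 (0.984) and Zc3h12a (0.983), and for Nfkb2 Mmp3 (0.979), Ccl4 (0.976) and Map3k6 (0.970). For Lcn2 they were Mt2 (0.988), Saa3 (0.984) and Ccl20 (0.984), and for Acod1 Nfkbia (0.994), Ccl3 (0.989) and Zc3h12a (0.982). Of the members themselves, Tnfaip3 followed the rest least, with r of 0.273 to 0.565 with the other 9.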

How the data were processed

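Ribosome footprints and RNA were analysed from the processed tables. For footprints the authors deposited counts per gene, from reads aligned with HISAT2 2.1.0 to mm10 after removal of unwanted RNA with Bowtie2 2.2.3 and counted with featureCounts (versions from the submitters' processing notes). The RNA tables, deposited per transcript, hold estimated counts and TPM that the authors obtained with kallisto 0.42.4. By the submitters' description of the series, 1 Pelo-/- RNA sample had been left out as an outlier.

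The estimated counts of the transcripts of a gene were added up and then rounded. Mutants were compared with controls by edgeR 4.0.16 (quasi-likelihood test, TMM factors, filterByExpr, Benjamini-Hochberg adjustment over all genes tested, threshold 0.05) in R 4.3.3, with histone genes removed from footprints. Translational efficiency was the interaction of assay and genotype, and differences between footprint effects the interaction of batch and genotype. Tables were normalized separately. CPM used the TMM factors of each comparison, and SE is that of the log2 fold change. Alternatives were DESeq2 1.42.0, no filter, other scaling, a replicate block, summed controls, a fit over all MEF libraries, protein-coding transcripts alone and leaving out each library. The code was tested on simulated data. Ratios of summed counts have exact 95% binomial intervals, which cover counting error only. P-values set a difference against the spread between these libraries as the test models it. For differences between footprint effects the nearly alike controls of both batches were counted as separate libraries.

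The members and the other gene lists were chosen with earlier results of these data known. All members are named, and from each other list up to 4 genes per comparison with the largest changes among those past the threshold and at a mean CPM of at least 5. Hp, Saa3, single markers and the nearest patterns, up to 3 per member for 4 members, were shown beside that rule.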

Additional observations from a re-analysis of the deposited data

Results flagged for a closer look

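The effects of the mutants on the same gene were set against each other by edgeR's quasi-likelihood test of the difference itself. Differences past an adjusted p of 0.05 are listed, and nothing is read from their number. Of all genes 5.55% (Pelo and Hbs1l), 4.93% (Upf2 and Hbs1l) and 13.0% (Pelo and Upf2) passed in footprints. In RNA 35.2%, 27.1% and 28.9% passed, in the same order. The footprint tests count the nearly alike controls of both batches as separate libraries. Differences that involve Pelo-/- footprints come from the values that may have guided the choice of genes and are given as a description. In footprints the effect in Pelo-/- exceeded that in Hbs1l-/-, on the log2 scale, by 1.96 for Nfkbia, 1.80 for Nfkbie, 1.34 for Relb, 1.03 for Nfkbiz, 0.95 for Tnfaip3, 0.81 for Nfkb2 and 0.69 for Nfkb1. It exceeded that in the libraries labelled Upf2-/- by 2.27 for Nfkbia, 1.86 for Nfkbie, 1.78 for Nfkbiz, 1.46 for Relb, 1.31 for Tnfaip3, 1.00 for Nfkb1 and 0.94 for Nfkb2. For Lcn2 the fitted difference of 8.72 rests on control counts near 0 and is no bound, and it was no longer past the threshold without control replicate 2 or 3 of the Upf2 batch. The effect on Nfkbiz in those labelled Upf2-/- minus that in Hbs1l-/- was -0.75.

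In RNA the log2 difference of Pelo-/- from Hbs1l-/- was 1.94 for Tnfaip3, -0.50 for Nfkbia, -0.50 for Nfkbie and -0.38 for Relb. That of the libraries labelled Upf2-/- from Hbs1l-/- was 1.03 for Tnfaip3, -0.97 for Nfkbia, -0.64 for Nfkb2 and -0.39 for Nfkb1. That of Pelo-/- from those labelled Upf2-/- was 0.91 for Tnfaip3, 0.50 for Nfkb2 and 0.47 for Nfkbia. Tnfaip3 and Nfkbia were the members past the threshold in all 3 of these RNA comparisons.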

How the results depend on the processing

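Of the members' fold changes under alternatives that kept all libraries, 639 kept their side of the threshold, and 17 lost and 17 gained a call. No called value changed direction, while changes of direction among values not called were not counted apart. Without single libraries the numbers were 1067, 84 and 9. The count of members called in embryos was 1 with no filter and 1 with the replicate block, against 0. In Pelo-/- RNA it was 1 with no filter, 1 with the replicate block and 1 in a fit over all MEF libraries, against 3, and in RNA labelled Upf2-/- 1 for protein-coding transcripts alone, against 3. It was 2 against 1 for the difference between footprints labelled Upf2-/- and Hbs1l-/- when mutant libraries were compared directly, an alternative chosen after seeing the data. Member transcripts called with DESeq2 were 3 in Hbs1l-/- and 4 in Pelo-/-, against 1 and 1. The cause was not tested. Among the ranges that follow, those from Pelo-/- footprints include Lcn2 and Acod1 and rest on values that may have guided the choice. Nothing is read from them. With all libraries kept, 44.1%, 34.1% and 43.4% of all genes were called in footprints of Pelo-/-, Hbs1l-/- and those labelled Upf2-/-. Leaving out single libraries gave 8 to 9 members called in Pelo-/- footprints, 3 to 5 in Hbs1l-/- and 1 to 3 in those labelled Upf2-/-. In RNA it gave 4 to 5 in Hbs1l-/-, 1 to 3 in Pelo-/- and 0 to 3 in those labelled Upf2-/-. For translational efficiency the ranges were 7 to 9 in Pelo-/-, 1 to 2 in those labelled Upf2-/- and 0 to 0 in Hbs1l-/-. For differences in footprints they were 7 to 8 (Pelo and Hbs1l), 7 to 9 (Pelo and Upf2) and 0 to 1 (Upf2 and Hbs1l), and in RNA 1 to 3, 1 to 4 and 3 to 4 in the same order. Embryos gave 0 to 1 and cerebella 0 to 0. Where leaving out a library left 1 Pelo-/- RNA sample, it was assumed to vary like the others.

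Counts over all genes moved more. In embryos 214 genes were called, 415 with DESeq2, 703 with no filter and 564 with the replicate block. In cerebella they were 9, against 476, 16 and 0, and 67 with histone genes kept. For translational efficiency in Hbs1l-/- they were 2, against 340 with DESeq2 and 22 with no filter, and in Pelo-/- RNA 4727, against 2955 with the replicate block. Comparing mutant footprints directly gave 1950, 1928 and 3303 genes, against 695, 608 and 1648. Same-numbered libraries share only a number. The correlations of their deviations were -0.297 to 0.43 and not over 0.1 for every pair of any comparison, and every mutant library correlated best with the control of its own number in 2 of 8 comparisons, embryos and Hbs1l-/- footprints. With 0 to 5 counts per group outside Pelo-/- footprints and the cerebellum, footprint ratios of Lcn2 were bounded only to 0.0839 to 15.96 in Hbs1l-/- MEFs and 0.0829 to 6.40 in those labelled Upf2-/-, so smaller differences were not detectable at this depth. That of Acod1 in Hbs1l-/- MEFs lay between 0.647 and 274.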
